A study of Mus musculus with 29 samples.

Results

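The 9 genes described here, which activate, inactivate, carry or answer to thyroid hormone, were followed in the mouse hypothalamus from the first postnatal week to old age: Dio2, Dio3, Slco1c1, Crym, Thra, Thrb, Hr, Klf9 and Itih3. They were taken by gene symbol, in a choice made with earlier results of these data known. All 9 were found among the 24499 symbols counted in every library. The RNA came from wild-type mice (genotype WT) of strain C57BL/6, all labelled male, which were housed singly under a 12:12 light-dark cycle and whose tissue was taken around zeitgeber time 6, in the middle of the light phase, and stored in RNAlater. Paired-end RNA sequencing libraries were made at 9 ages: postnatal day 5 (P5, 3 libraries), 3 weeks (3), 4 weeks (4), 5 weeks (4), then 2, 6, 12 and 18 months with 3 apiece, and finally 24 months with 2 complete ones. The labels give no mutation or treatment and set the groups apart by age. The labels give each library a number but do not say in so many words that each is a separate mouse, so every p-value here reflects only how far these libraries scatter.

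The thyroid gland releases mostly thyroxine, a prohormone, and brain cells make much of the active hormone, triiodothyronine, for themselves. Thyroxine enters the brain through transporters such as the one encoded by Slco1c1 (OATP1C1), which sits in brain capillaries and astrocytes. In astrocytes and in tanycytes, the cells lining the third ventricle, the enzyme encoded by Dio2 removes an outer-ring iodine and yields triiodothyronine, whereas the enzyme encoded by Dio3, found mainly in neurons, inactivates both hormones. The receptors encoded by Thra and Thrb bind DNA as partners of retinoid X receptors and repress or activate their target genes according to whether hormone is bound. In the hypothalamus the same hormone restrains Trh, the gene of thyrotropin-releasing hormone, which closes the feedback loop to the pituitary and the thyroid.

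The 9 genes lie on 6 chromosomes of the mouse genome (GENCODE M21, build GRCm38). Dio2 (ENSMUSG00000007682) occupies chr12:90724552-90738438 on the minus strand and Dio3 (ENSMUSG00000075707), a gene of 1 exon, chr12:110279068-110281097 on the plus strand. Slco1c1 is at chr6:141524368-141570177 (plus), Crym at chr7:120186380-120202111 (minus), Thra at chr11:98740638-98769006 (plus) and Klf9 at chr19:23141226-23168134 (plus). Thrb, Hr and Itih3 lie far apart on chromosome 14, at chr14:17660261-18038090 (plus), chr14:70552212-70573548 (plus) and chr14:30908572-30923760 (minus). Thra overlaps Nr1d1, the gene of the clock repressor REV-ERB alpha, on the opposite strand by 1075 bases, of which 263 are exonic in both genes. No source used here gives the strand setting of the counting, and reads from that stretch could not be assigned by strand.

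Of the 9 genes, 6 have an upstream window in the RefSeq promoter table (GRCm38.p6), and 250 bases before the annotated start were read for each. The windows of 4 genes are shown, chosen after their values were seen. They include the activating enzyme (Dio2, chr12:90739039-90739288, minus strand) and the inactivating enzyme (Dio3, chr12:110278980-110279229, plus strand). Thrb, the receptor gene with more RNA at 3 weeks than at P5, is shown by its first of 2 windows (chr14:17660710-17660959, plus strand). Klf9 is a direct hormone target (chr19:23140976-23141225, plus strand). Itih3, with the largest change of the 9 between P5 and 3 weeks, has a window that is not shown. Capitals mark a match to TGACGTCA, the cyclic AMP response element, in Dio2 and a match to AGGTCA, the core motif of nuclear receptor binding sites, in Thrb.
Dio2: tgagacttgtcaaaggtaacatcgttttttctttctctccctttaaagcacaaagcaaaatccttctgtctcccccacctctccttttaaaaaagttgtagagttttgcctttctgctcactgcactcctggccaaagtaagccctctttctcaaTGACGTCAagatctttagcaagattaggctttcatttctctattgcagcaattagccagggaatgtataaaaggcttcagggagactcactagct
Dio3: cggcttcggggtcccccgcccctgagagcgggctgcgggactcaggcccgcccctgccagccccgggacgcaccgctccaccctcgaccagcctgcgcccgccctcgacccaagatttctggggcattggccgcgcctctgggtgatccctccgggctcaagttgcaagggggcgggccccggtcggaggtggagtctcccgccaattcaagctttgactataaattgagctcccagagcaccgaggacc
Thrb: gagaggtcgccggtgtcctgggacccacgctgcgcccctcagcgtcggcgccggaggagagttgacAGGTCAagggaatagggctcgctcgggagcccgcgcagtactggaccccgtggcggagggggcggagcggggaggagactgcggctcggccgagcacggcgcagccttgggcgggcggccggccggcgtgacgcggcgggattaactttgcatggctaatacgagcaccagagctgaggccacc
Klf9: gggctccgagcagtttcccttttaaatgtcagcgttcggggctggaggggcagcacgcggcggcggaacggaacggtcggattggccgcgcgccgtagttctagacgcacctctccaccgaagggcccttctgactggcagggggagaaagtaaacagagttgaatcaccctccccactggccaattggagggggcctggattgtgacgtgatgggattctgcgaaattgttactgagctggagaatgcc

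Both strands were searched for TGACGTCA, for AGGTCA and for the direct repeat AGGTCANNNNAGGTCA, which holds AGGTCA on either side of 4 free bases. TGACGTCA stood 95 to 88 bases before the Dio2 start and in no window of the other genes; of all 32851 mouse windows of this length, 1.55% hold it. AGGTCA stood 184 to 179 bases before the first Thrb start, and 14% of all windows hold it. The direct repeat was in none of the windows of these genes and in 0.0152% of all windows. The deiodinase windows differed in base composition. That of Dio2 was 41.6% G or C with 2 CpG sites and that of Dio3 69.6% with 21, against medians of 52.4% and 6 over all windows. The first Thrb window (71.6%, 30 CpG sites) and that of Klf9 (59.6%, 18) were also above the medians. The second Thrb window, at chr14:17981394-17981643, was below them, with 44.0% and 2 CpG sites. Slco1c1 (42.8%, none) resembled Dio2, and Itih3 had 58.8% with 3 CpG sites. RefSeq and GENCODE place some of these starts differently, as the coordinates show.

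The libraries held 24661631 to 39783779 counts over genes. Values are CPM, a library's counts rescaled to a common total, scaled for library composition by the TMM method, and a gene was called when its Benjamini-Hochberg adjusted p in edgeR's quasi-likelihood test was below 0.05. Some libraries stood apart from their labels. Xist, which coats the silenced X of females, reached 746 CPM in P5 replicate 1 and 791 CPM in P5 replicate 2, and Ddx3y of the Y chromosome was at 0 in both. In P5 replicate 3 Xist was at 0.223 CPM while Ddx3y was at 55.1 CPM, and later libraries stayed at 1.19 CPM of Xist or less. The 8 hypothalamic markers (Otp, Nr5a1, Fezf1, Six6, Avp, Oxt, Pomc and Agrp) were detected at every age, but they summed to 31.9 to 111 CPM at 2 months, against 404 to 676 CPM at 5 weeks. The 6 markers of midbrain and hindbrain summed to 26.3 to 44.3 CPM at 2 months, against 3.22 to 3.91 CPM at 5 weeks. One further 24-month library, with counts in 1385 genes, was left out.

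The first weeks brought the widest changes in the pathway. Between the 9 ages, 8 of the 9 genes differed (F-test), all but Crym (adjusted p = 0.259), where 76.8% of the 16916 genes tested did so. The call of Slco1c1 (adjusted p = 0.034) was lost in 9 of the 28 fits that left out 1 library, with an adjusted p of at most 0.091. These libraries were P5 replicates 2 and 3, 3-week replicates 1 and 3, 4-week replicate 2, 2-month replicate 12, 6-month replicate 33 and both 24-month libraries. At 3 weeks against P5, 6 of the 9 genes rose (Dio2, Slco1c1, Thrb, Hr, Klf9 and Itih3), 1 fell (Dio3) and Thra and Crym were not called. Among all genes tested, 29.8% rose and 29.3% fell in this comparison. The median log2 fold change was 1.35 over the 9 genes and -0.01 over all genes tested.

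**Figure D1:**
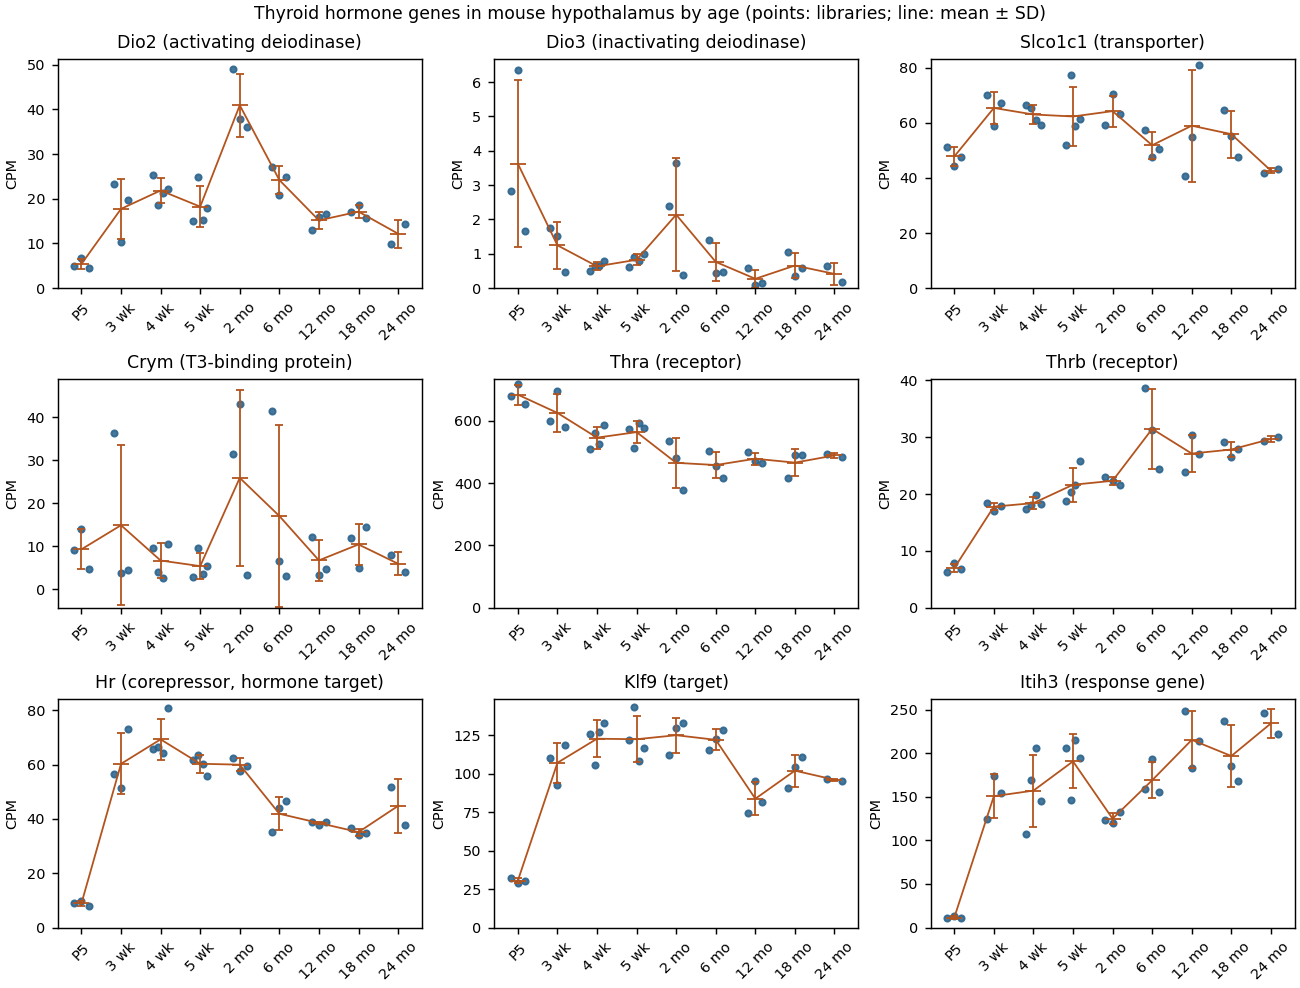
CPM of the 9 genes (y axes, starting at 0, or below it where the SD bar reaches below 0) at 9 ages (x axes), with 1 point per library and lines joining the means ± SD. Dio2, Thrb, Hr, Klf9 and Itih3 are lowest at P5 in every library, Dio2 peaks at 2 months (36.0 to 49.0 CPM), and the high means of Crym come from 1 library at 3 weeks, 2 of 3 at 2 months and 1 at 6 months.

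Dio2, the activating enzyme, had 23.3, 10.2 and 19.7 CPM in the 3-week libraries, against 5.02, 6.67 and 4.5 CPM in the P5 libraries. Every 3-week library was above every P5 library, and the lowest of them (10.2 CPM) was nearest to the highest P5 value (6.67 CPM). The log2 fold change was 1.72 ± 0.25 (SE; adjusted p = 2.3e-06). Dio3, the inactivating enzyme, had 1.74, 1.52 and 0.476 CPM in the 3-week libraries, against 2.84, 6.36 and 1.68 CPM in the P5 libraries. The highest 3-week library overlapped the lowest P5 library, and P5 replicate 2 stood well above all others. The log2 fold change of Dio3 was -1.54 ± 0.63 (adjusted p = 0.038). That call rested on single libraries: the value was -0.86 (adjusted p = 0.282) without P5 replicate 2, -1.71 (0.056) without 3-week replicate 2, -1.15 (0.157) without 3-week replicate 3, and -0.44 (adjusted p = 0.704) when the only P5 library without Xist stood for that age. Dio3 is also a rare RNA, with 16 to 58 counts per library at 3 weeks and 60 to 221 at P5.

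Within each library the balance of the deiodinase RNAs shifted with age. Dio2 had 13.3, 6.74 and 41.4 counts for each Dio3 count in the 3-week libraries, against 1.76, 1.05 and 2.68 in the P5 libraries. The lowest 3-week ratio was thus above the highest P5 ratio. Per kilobase of exon, the level of Dio2 was 3.05 ± 1.16 CPM at 3 weeks and 0.928 ± 0.195 CPM at P5 (SD, n = 3 each), and that of Dio3 was 0.614 ± 0.333 CPM at 3 weeks and 1.79 ± 1.20 CPM at P5. On this per-length scale Dio3 RNA was the more abundant of the pair in the mean at P5 and Dio2 RNA at every later age.

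The transporter gene Slco1c1 changed less than Dio2, and the direction of Crym was not settled. Slco1c1 had 70.2, 58.9 and 67.2 CPM at 3 weeks, against 51.4, 44.3 and 47.8 CPM at P5. The groups did not overlap, and the log2 fold change was 0.45 ± 0.17 (adjusted p = 0.023). The call of Slco1c1 was lost in 4 of the 6 fits that left out 1 of these libraries (largest adjusted p = 0.078) and with the P5 library without Xist alone (0.45, adjusted p = 0.155). Crym encodes mu-crystallin, which binds triiodothyronine in the cytosol. It had 36.3, 3.9 and 4.52 CPM at 3 weeks, against 9.13, 14.1 and 4.78 CPM at P5, so the first 3-week library alone set the direction (log2 fold change 0.68 ± 0.96, adjusted p = 0.56, and -1.14 without it).

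The receptor genes parted. Thrb had 18.3, 17.0 and 17.9 CPM at 3 weeks, against 6.32, 7.82 and 6.81 CPM at P5. The libraries within each age lay close together, with a wide gap between the ages, and the log2 fold change was 1.35 ± 0.13 (adjusted p = 3.7e-09). Thra, the more abundant receptor, had 601, 696 and 580.5 CPM at 3 weeks, against 679, 718 and 655 CPM at P5. These ranges overlapped (log2 fold change -0.13 ± 0.10, adjusted p = 0.282). Thra counts exceeded Thrb counts 32.8-fold in the median 3-week library, against 96.1-fold in the median P5 library, with no overlap between the ages (32.4 to 40.8 against 91.8 to 107.5). Nr1d1, which shares exonic bases with Thra, averaged 48.4 CPM at 3 weeks and 14.6 CPM at P5, and its part in the Thra values was not tested.

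The response genes moved furthest. Hr, which encodes the nuclear corepressor Hairless and is itself induced by the hormone in rodent brain, had 56.4, 51.4 and 72.9 CPM at 3 weeks, against 8.93, 9.72 and 7.99 CPM at P5. Every 3-week library lay several times above every P5 library (log2 fold change 2.76 ± 0.13, adjusted p = 1.1e-14). Klf9, a zinc-finger transcription factor and direct receptor target, had 109.8, 92.8 and 118 CPM at 3 weeks, against 32.2, 29.2 and 30.0 CPM at P5. Its 3 P5 libraries were nearly equal and far below the 3-week libraries (log2 fold change 1.81 ± 0.11, adjusted p = 1.5e-12). Itih3, which encodes a secreted heavy chain of the inter-alpha-trypsin inhibitor family, had 124, 174 and 154 CPM at 3 weeks, against 10.4, 12.9 and 11.1 CPM at P5. Its log2 fold change, 3.72 ± 0.21 (adjusted p = 6.5e-13), was the largest of the 9. The calls of Dio2, Thrb, Hr, Klf9 and Itih3 held with the P5 library without Xist alone, with log2 fold changes of 1.98, 1.38, 2.91, 1.83 and 3.76.

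Markers of cell types moved over the same interval, in which 29.8% of all genes tested rose and 29.3% fell. Of 7 astrocyte markers, 5 rose and 1 (Aldh1l1) fell, and their summed level was 3034 to 3338 CPM at 3 weeks and 1129 to 1221 CPM at P5. Of 6 endothelial markers, 5 rose (388 to 395 CPM at 3 weeks, 176 to 191 CPM at P5), and all 5 oligodendrocyte markers rose (3284 to 4047 CPM at 3 weeks, 30.1 to 37.5 CPM at P5). Of 7 tanycyte markers, 2 rose (Scn7a and Adm) and 1 fell (Lhx2), with summed levels of 50.9 to 59.8 CPM at 3 weeks and 46.8 to 64.6 CPM at P5. No marker of these 4 lists was at 0 at either age. Regional markers moved as well: 3 of 8 hypothalamic markers rose (388 to 737 CPM at 3 weeks, 139 to 216 CPM at P5), and 3 of 5 tested midbrain and hindbrain markers fell (3.52 to 4.20 CPM at 3 weeks, 9.40 to 39.2 CPM at P5). Both blood markers, Alas2 and Hbb-bt, rose (76.6 to 129 CPM at 3 weeks, 9.52 to 13 CPM at P5). Bpifa2, which encodes a salivary protein, had 34 to 47 CPM in the 3-week libraries and at most 0.028 CPM in the P5 libraries. It had 37.5 and 41.1 CPM in 4-week replicates 1 and 2, but 0 in 4-week replicates 3 and 4 and in every 5-week library. Its level thus divided libraries of 1 age and did not mark age alone. The part of all these genes in the changes of the 9 was not tested, and in bulk tissue fewer cells of a type and less RNA per cell cannot be told apart.

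**Figure D2:**
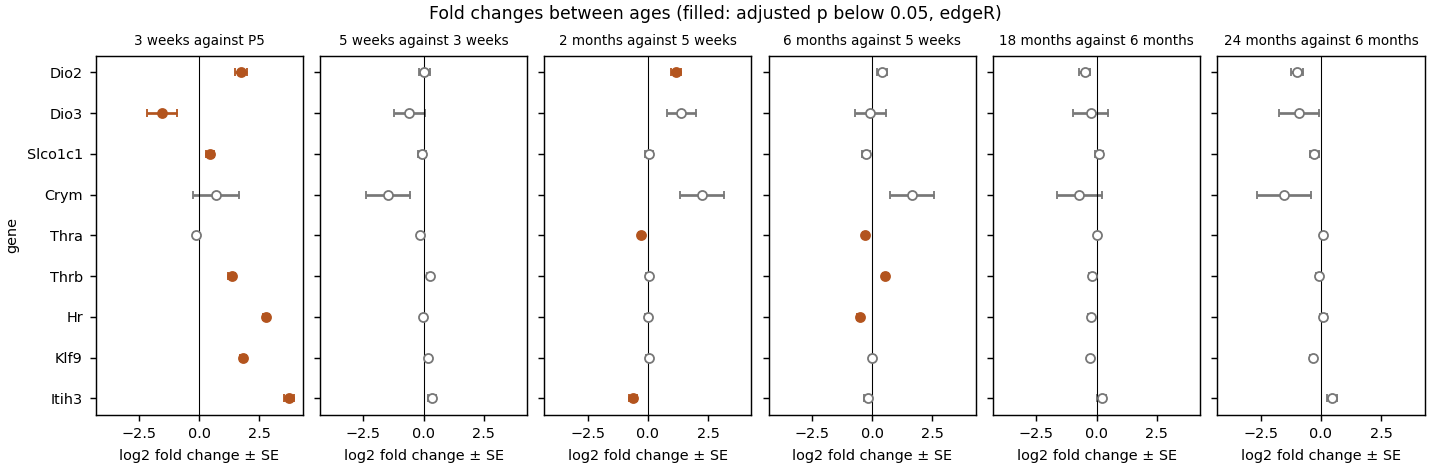
Log2 fold changes ± SE (x axes) of the 9 genes (rows) in 6 comparisons of ages (panels), from edgeR; filled points have an adjusted p below 0.05. At 3 weeks against P5, 7 points are filled, and at 5 weeks against 3 weeks and at 18 or 24 months against 6 months none is.

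Genes of the same pathway outside the 9 were read from 5 lists, each counted in full. The counts stand beside 29.8% higher and 29.3% lower over all genes tested at 3 weeks against P5. Among 8 carriers and transporters, 3 rose and 2 fell at 3 weeks against P5 (median log2 fold change 0.07). Slco1a4, a capillary organic anion transporter that also takes thyroid hormone, rose by 2.40 ± 0.14 on the log2 scale. Slco2b1 (0.90 ± 0.13), another organic anion transporter, and Slc3a2 (0.20 ± 0.06), the heavy chain of amino acid exchangers, rose too. Slc7a5, the light chain paired with Slc3a2, fell (-0.69 ± 0.11). Ttr, the thyroxine carrier of the choroid plexus, ranged from 11.8 to 99.5 CPM at 3 weeks and from 1.17 to 320 CPM at P5 and was not called.

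Among genes of hormone metabolism, 4 of 5 were tested and all 4 were called: Iyd (3.01 ± 0.51), an iodotyrosine deiodinase, Sult1a1 (1.16 ± 0.30), a sulfotransferase, and Secisbp2 (0.28 ± 0.09), needed to make selenoproteins such as the deiodinases, rose, and Txnrd1 fell (-0.19 ± 0.06). Iyd was rare, at 1.44 to 4.14 CPM at 3 weeks and 0.234 to 0.475 CPM at P5. Dio1, the deiodinase of liver and kidney, did not pass the filter on low counts and reached at most 0.164 CPM in any library.

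Of 13 receptor partners and coregulators, 4 were called higher and 5 lower (median -0.03), against 29.8% higher and 29.3% lower over all genes tested. The retinoid X receptor genes Rxra (1.42 ± 0.12) and Rxrb (0.68 ± 0.08) rose, as did the coactivator gene Ncoa1 (0.17 ± 0.07). The corepressor Ncor1 (-0.41 ± 0.08), its deacetylase partner Hdac3 (-0.23 ± 0.08) and the coactivators Ncoa2 (-0.38 ± 0.07), Ncoa3 (-0.69 ± 0.13) and Med1 (-0.45 ± 0.07) fell.

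Of 5 genes of the feedback axis, Trh (1.45 ± 0.30) and the receptor gene Trhr2 (0.65 ± 0.27) rose, and Trhde (-0.55 ± 0.16), which encodes the enzyme that degrades thyrotropin-releasing hormone, fell. Trh had 66.6, 117 and 80.6 CPM at 3 weeks, against 35.3, 36.9 and 24.5 CPM at P5. Of 10 further genes known to respond to thyroid hormone in rodent brain, 5 rose and 1 fell (median 0.85). The risers were Mbp (5.90 ± 0.23, myelin basic protein), Dbp (2.94 ± 0.19, a clock output factor), Kcnj10 (2.39 ± 0.11, the astrocytic potassium channel), Aldh1a1 (2.12 ± 0.57, a retinaldehyde dehydrogenase) and Ier5 (0.58 ± 0.16), and the gene that fell was Camk4 (-1.81 ± 0.24), a calcium/calmodulin kinase. Mbp is also an oligodendrocyte gene and Kcnj10 an astrocyte gene, and the markers of both cell types rose.

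**Figure D3:**
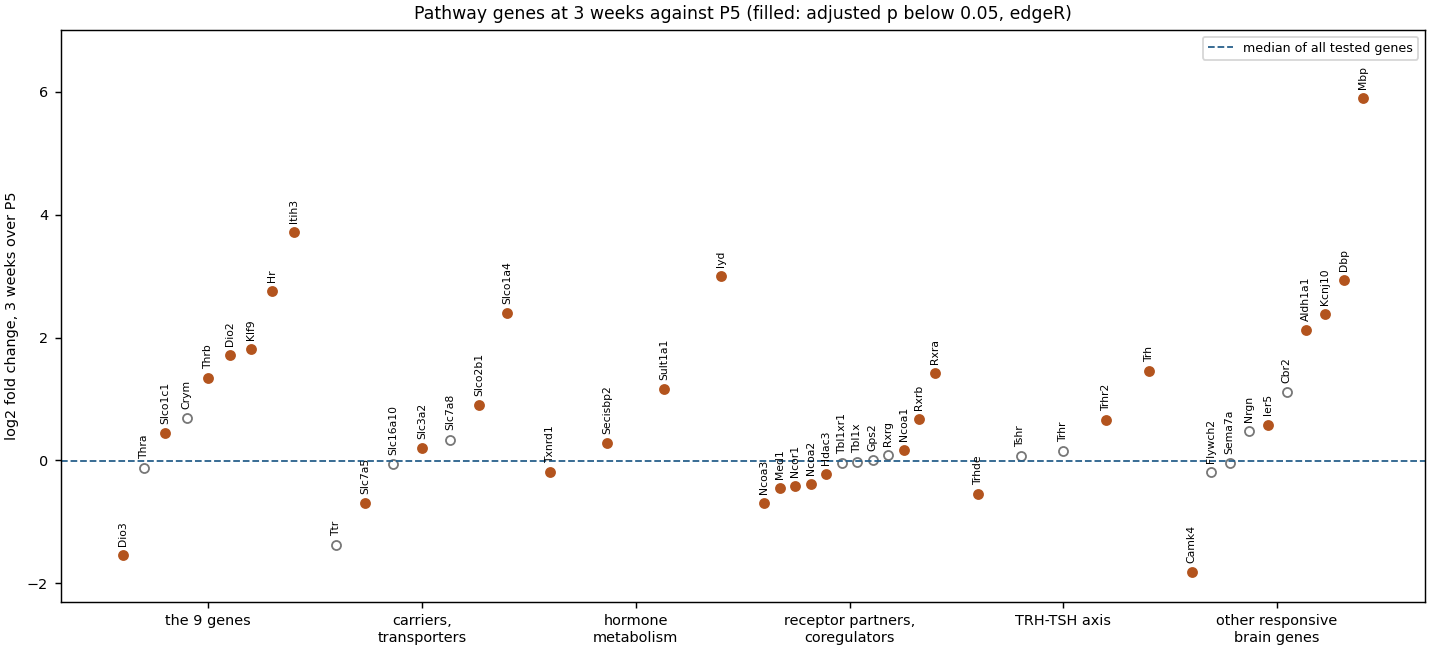
Log2 fold change at 3 weeks over P5 (y axis) for the 9 genes and tested members of 5 pathway lists (x axis; 2 list genes are not drawn), each point a gene, filled where the adjusted p was below 0.05; the dashed line is the median of all tested genes (-0.01). Itih3 (3.72), Hr (2.76) and Mbp (5.90) lie above the line, Camk4 (-1.81) lies below it, and coregulators lie on both sides of it.

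Between 3 and 5 weeks no change in the 9 genes passed the test. At 5 weeks against 3 weeks none of the 9 genes was called by edgeR or by DESeq2, and 1 (Thrb) had an unadjusted p below 0.05. Over all 16916 genes tested, 1972 had an unadjusted p below 0.05, and 0.698% were called higher and 1.45% lower. The transcript Rn7s2 had 1.83, 1.44 and 2.11 CPM at 3 weeks, against 24.6, 29.6, 25.7 and 24.2 CPM at 5 weeks. At 4 weeks it exceeded 10 CPM in replicates 3 and 4 and not in replicates 1 and 2. Age cannot be told apart from this difference in a comparison of 5 weeks with 3 weeks. Rn7s2 was at 1.78 CPM or less at 2 and 6 months, so the comparisons of those ages with 5 weeks share this limit. Thrb had 18.8, 20.4, 21.6 and 25.7 CPM at 5 weeks, against 18.3, 17.0 and 17.9 CPM at 3 weeks. Its groups did not overlap, but the difference was small (log2 fold change 0.28 ± 0.12, adjusted p = 0.314). Dio2 had 14.9, 24.9, 15.2 and 17.9 CPM at 5 weeks, within the span of 10.2 to 23.3 CPM at 3 weeks but for the second library (0.04 ± 0.22). At the age between them, 4 weeks, Dio2 had 18.6 to 25.3 CPM, Thrb 17.3 to 19.8 CPM, Klf9 105 to 133 CPM and Itih3 108 to 206 CPM. Hr at 4 weeks had 65.7, 66.3, 64.3 and 80.7 CPM, the highest mean of any age. No member of the 5 pathway lists was called in this interval, while Nr1d1 rose further (0.60 ± 0.10).

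At 2 months the activating enzyme stood out. Dio2 had 49.0, 37.8 and 36.0 CPM at 2 months, against 14.9, 24.9, 15.2 and 17.9 CPM at 5 weeks. No library of any other age reached the lowest 2-month value, the nearest being 27 CPM at 6 months. The log2 fold change was 1.17 ± 0.21 (adjusted p = 0.00081), and it stayed between 1.01 and 1.35 with any one library of the 2 ages left out. Itih3 had 123, 119.5 and 132 CPM at 2 months, against 206, 146, 216 and 195 CPM at 5 weeks. It fell without overlap (-0.61 ± 0.17, adjusted p = 0.019), although leaving out 1 of 4 libraries in turn (5-week replicates 1 and 3, 2-month replicates 11 and 12) ended the call, with an adjusted p of at most 0.058. Thra, at 537, 482 and 378 CPM, against 575, 512, 592 and 578 CPM at 5 weeks, was called narrowly (-0.28 ± 0.10, adjusted p = 0.047) with overlapping ranges, and lost the call without any one of 5 of the 7 libraries. With 1 of the 9 genes called higher and 2 lower, the background was 7.13% higher and 9.43% lower.

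Hr (-0.01 ± 0.11), Klf9 (0.03 ± 0.10), Thrb (0.04 ± 0.12) and Slco1c1 (0.04 ± 0.16) were not called at 2 months against 5 weeks, and each had an estimate near 0. Dio3 and Crym were high in the same 2 libraries of 3. Dio3 had 2.39, 3.64 and 0.387 CPM at 2 months, against 0.623, 0.897, 0.775 and 1.0 CPM at 5 weeks (1.39 ± 0.61, adjusted p = 0.126). Crym had 31.3, 43.1 and 3.25 CPM at 2 months, against 3.00, 9.68, 3.52 and 5.48 CPM at 5 weeks (2.26 ± 0.91, adjusted p = 0.097). The remaining 2-month library, replicate 13, was below the 5-week range for Dio3 and within it for Crym, and without it Dio3 (1.86, adjusted p = 0.030) and Crym (2.77, adjusted p = 0.048) passed the threshold.

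The 2-month libraries also differed in their regional markers, and these values stand beside every result of that age. Of the 8 hypothalamic markers, 7 fell against 5 weeks, with log2 fold changes between -1.62 (Pomc) and -3.89 (Oxt), and of 5 tested midbrain and hindbrain markers 3 rose (Tfap2b 4.88, Gata3 4.02 and Tal1 2.40). Of 7 astrocyte markers, 4 rose, with summed levels of 3692 to 4987 CPM at 2 months and 3209 to 3349 CPM at 5 weeks. Of 7 tanycyte markers, Rax (-1.74 ± 0.49) and Gpr50 (-1.35 ± 0.37) fell. Trh had 19.6, 18.7 and 15.8 CPM at 2 months, against 60.7 to 91.0 CPM at 5 weeks (-2.10 ± 0.30), and Trhde, its degrading enzyme, fell (-0.51 ± 0.15). Sema7a (0.70 ± 0.22), which encodes a semaphorin, and Kcnj10 (0.32 ± 0.10) rose, and no other gene of the 10 further response genes was called. At 2 months, age and the regional makeup of the libraries cannot be told apart.

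At 6 months against 5 weeks, Thrb rose and Hr and Thra fell. The hypothalamic markers summed to 273 to 394 CPM at 6 months and 404 to 676 CPM at 5 weeks. Thrb had 38.6, 31.2 and 24.5 CPM at 6 months, against 18.8, 20.4, 21.6 and 25.7 CPM at 5 weeks. The lowest 6-month library lay within the 5-week range, and the log2 fold change was 0.54 ± 0.11 (adjusted p = 0.0030). Hr fell to 35.0, 44.0 and 46.6 CPM at 6 months, against 61.5, 63.4, 60.3 and 55.8 CPM at 5 weeks, without overlap (-0.53 ± 0.11, adjusted p = 0.0036). Thra fell to 503, 454 and 418 CPM, against 512 to 592 CPM at 5 weeks (-0.30 ± 0.10, adjusted p = 0.039), a call lost without any one of 5 of the 7 libraries. Over all genes 4.58% rose and 8.39% fell, against 1 and 2 of the 9. Dio2 (0.41 ± 0.21, adjusted p = 0.214), Klf9 (-0.00 ± 0.10) and Itih3 (-0.17 ± 0.17) were not called. This comparison shares its 5-week libraries with that of 2 months. All 5 oligodendrocyte markers fell (1354 to 1855 CPM at 6 months, 2532 to 3196 CPM at 5 weeks), and 6-month replicate 34 held 39.0 CPM of midbrain and hindbrain markers, against 5.28 CPM or less in the other 6-month libraries. In 6-month replicate 32, with the highest Thrb and lowest Hr of its age, the striatal markers (Ppp1r1b, Drd2, Adora2a and Rgs9) summed to 301 CPM. In 6-month replicates 33 and 34 they summed to 98.5 and 93.7 CPM. The part of these markers in the changes was not tested.

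Set against 2 months, the 6-month libraries showed higher Thrb and lower Hr, in a comparison that shares its 6-month libraries with the one above. Thrb was higher at 6 months (38.6, 31.2 and 24.5 CPM) than at 2 months (23.1, 22.3 and 21.6 CPM), without overlap (0.50 ± 0.12, adjusted p = 0.027). Hr was lower at 6 months (35.0, 44.0 and 46.6 CPM) than at 2 months (62.5, 57.8 and 59.5 CPM), also without overlap (-0.52 ± 0.12, adjusted p = 0.020). Both calls were lost when 2-month replicate 11 or 6-month replicate 32 or 33 was left out, and when only these 2 ages were fitted, in which case no gene in the table was called. The highest 6-month value of Dio2 (27 CPM) was below the lowest at 2 months (36.0 CPM), but its fold change (-0.76 ± 0.23) missed the threshold at an adjusted p of 0.0598. The background was 1.77% higher and 1.83% lower. All 5 oligodendrocyte markers fell (1354 to 1855 CPM at 6 months, 2659 to 3553 CPM at 2 months), 2 of 6 endothelial markers fell, and 5 of 8 hypothalamic markers rose (273 to 394 CPM at 6 months, 31.9 to 111 CPM at 2 months). The striatal markers summed to 301 CPM in 6-month replicate 32, against 98.5 and 93.7 CPM in replicates 33 and 34. The part of all these markers in the Thrb and Hr calls was not tested. Within single libraries, Thra counts exceeded Thrb counts 13 to 17.1-fold at 6 months and 17.5 to 23.3-fold at 2 months, and the medians at 12, 18 and 24 months were 17.2, 17.6 and 16.5.

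**Figure D4:**
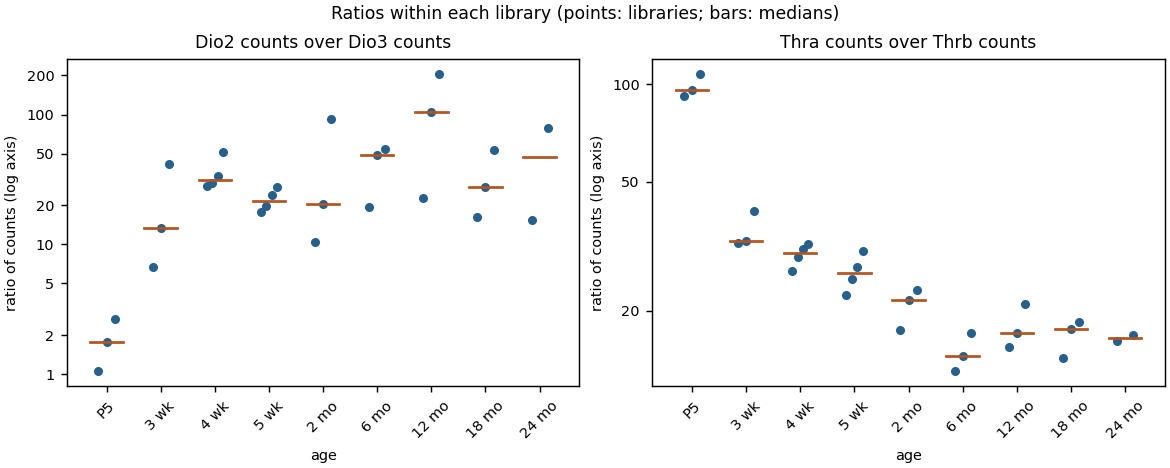
Counts of Dio2 over counts of Dio3 (left) and of Thra over Thrb (right) within each library (y axes, logarithmic) by age (x axes), with points for libraries and bars for medians. The Dio2 to Dio3 ratio is lowest at P5 (median 1.76) and scatters widely afterwards, and the Thra to Thrb ratio steps down to a median of 14.5 at 6 months.

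In later adult life few changes passed the test in any gene. At 18 months against 6 months no gene of the 9 was called by edgeR or DESeq2, with 3 at an unadjusted p below 0.05 (Dio2, Hr and Klf9, all lower). Over all 16916 genes tested, 1315 had an unadjusted p below 0.05, and 0.0177% were called higher and 0% lower. At 24 months against 6 months none of the 9 was called by edgeR, with 3 at an unadjusted p below 0.05 (Dio2, Klf9 and Itih3), and 1 was called by DESeq2 (Dio2). Here 1600 of the 16916 genes tested had an unadjusted p below 0.05. The share called was 0.0769% higher and 0.0296% lower, with 2 libraries at 24 months. The transcript Rn7s2 had 59.0 and 60.0 CPM in these 2, against 0.175, 1.78 and 0.622 CPM at 6 months. Age cannot be told apart from this difference between the libraries.

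Dio2 had 9.94 and 14.4 CPM at 24 months, against 27, 20.8 and 24.8 CPM at 6 months. The values did not overlap (-0.99 ± 0.26, adjusted p = 0.173), and at 12 months (13.1, 15.9 and 16.5 CPM) and 18 months (17.1, 18.5 and 15.7 CPM) Dio2 also lay below every 6-month library. Klf9 had 96.5 and 95.4 CPM at 24 months, against 115, 122 and 129 CPM at 6 months (-0.34 ± 0.12, adjusted p = 0.336), and was lowest of the adult ages at 12 months (74.2, 95.2 and 81.5 CPM). Itih3 had 246 and 223 CPM at 24 months, against 158, 193 and 156 CPM at 6 months (0.47 ± 0.20, adjusted p = 0.453). Slco1c1 was lower without overlap too, at 42.0 and 43.3 CPM, against 57.4, 47.7 and 50.6 CPM at 6 months (-0.28 ± 0.19, adjusted p = 0.692). None of these genes passed the adjusted threshold. How many of all genes separate 2 libraries from 3 in this way was not counted, so the lack of overlap only describes these libraries.

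Expressed as a slope over the 14 adult libraries from 2 to 24 months, Dio2 fell (-0.072 ± 0.011 per month on the log2 scale, adjusted p = 0.0044) and Itih3 rose by 0.036 ± 0.008 per month (adjusted p = 0.014). The other 7 genes were not called, and over all genes 3.08% rose and 4.35% fell. Both calls rested on the 2-month libraries, in which the regional markers differed: over 6 to 24 months the slopes were -0.047 for Dio2 (adjusted p = 0.247) and 0.021 for Itih3 (adjusted p = 0.511). Of the 10 further response genes, 5 fell over the adult months (Aldh1a1 with a slope of -0.077, Mbp -0.050, Sema7a -0.047, Kcnj10 -0.030 and Camk4 -0.025 per month). Trh rose (0.073 per month) and Slco1a4 fell (-0.029). Of the astrocyte markers, 3 of 7 fell over the same months, all 5 oligodendrocyte markers fell, and 2 of 7 tanycyte markers (Rax and Gpr50) rose. Their part in these slopes was not tested.

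The ages can also be ordered by mean level. Neighbours in such an order are set by the same values, and gaps between them were not counted over all genes. The gaps below therefore only describe these libraries. For Dio2 the order ran from P5 (5.39 CPM) through 24, 12 and 18 months, 3, 5 and 4 weeks and 6 months to 2 months (40.9 CPM), and of its 8 neighbouring pairs only P5 and 24 months, and 6 and 2 months, were free of overlap. For Hr the lowest means were at P5 (8.88 CPM) and 18 months (35.1 CPM) and the highest at 4 weeks (69.3 CPM), and 4 of 8 neighbouring pairs did not overlap. Thrb ran from 6.99 CPM at P5 to 31.4 CPM at 6 months with 3 such gaps, and Klf9 from 30.5 CPM at P5 to 125 CPM at 2 months with 2. Some gaps were narrow: Thrb had at most 29.1 CPM at 18 months and at least 29.4 CPM at 24 months. Hr had at most 36.5 CPM at 18 months and at least 37.9 CPM at 12 months. Itih3 had a single gap, between P5 (11.4 CPM) and 2 months (125 CPM), and its highest mean at 24 months (234 CPM). Thra ran from 458 CPM at 6 months to 684 CPM at P5, and of its neighbouring pairs only 24 months (489 CPM) and 4 weeks (546 CPM) did not overlap, although 2-month replicate 11 (537 CPM) lay above some 4-week and 5-week libraries. Slco1c1 had 1 gap as well, between 24 months (42.7 CPM) and P5 (47.8 CPM), and reached 65.4 CPM at 3 weeks. No neighbouring ages were separate for Dio3 or Crym.

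Crym varied more between libraries of 1 age than between ages. From 3 weeks on it exceeded 30 CPM in 4 libraries (3-week replicate 1 with 36.3, 2-month replicates 11 and 12 with 31.3 and 43.1, and 6-month replicate 32 with 41.3) and stayed at 14.4 CPM or below in all others. In 3-week replicate 1 and 6-month replicate 32 the 4 striatal markers (Ppp1r1b, Drd2, Adora2a and Rgs9) summed to 357 and 301 CPM, above the 69.7 to 163 CPM of the other libraries of these ages and later. In the 2-month replicates 11 and 12 the striatal sum was 115 in each, within that range. Dio3 was the highest of its age in 3-week replicate 1 (1.74 CPM), 6-month replicate 32 (1.40 CPM) and 2-month replicate 12 (3.64 CPM). Across the 25 libraries from 3 weeks on, log2 CPM of Crym and of Dio3 had a Pearson correlation of 0.67, a description of libraries that share ages and differ in regional markers. Without 3-week replicate 1 or 6-month replicate 32 the sign of the Crym fold change turned in each comparison that uses that library, except in 6 months against 2 months and in the adult slope.

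**Figure D5:**
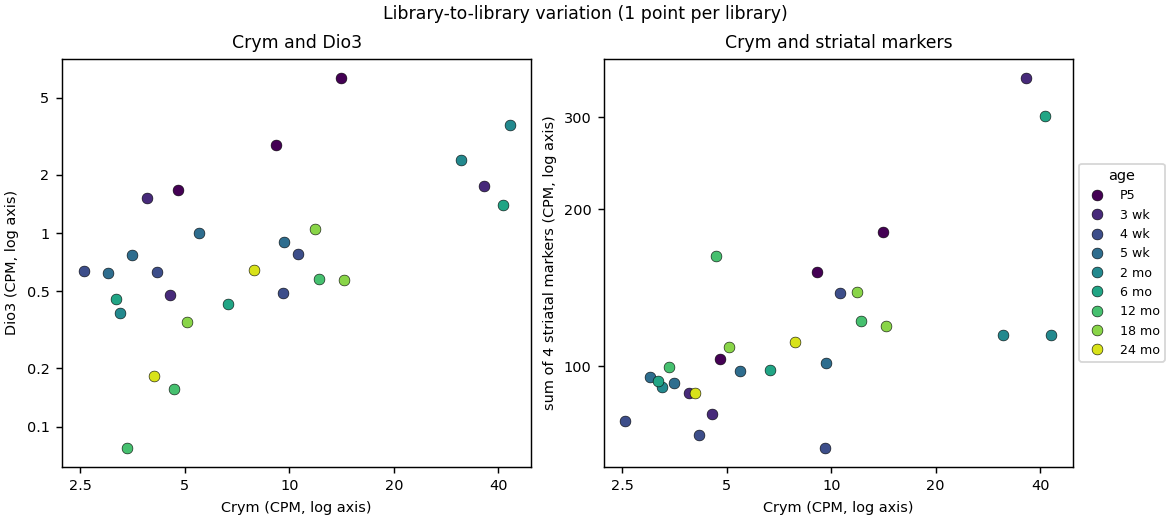
Each point is a library, coloured by age, with Crym on the x axes and Dio3 (left) or the sum of 4 striatal markers (right) on the y axes, all in CPM on logarithmic axes. Of the 4 libraries above 30 CPM of Crym, 2 also have the highest striatal sums (357 and 301 CPM) and the 2 from 2 months do not (115 CPM each).

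Over the same 25 libraries, the 9 genes did not vary as a block. The strongest pairs among them were Hr and Thrb (Pearson r = -0.80) and Dio2 and Itih3 (r = -0.77), both inverse, followed by Crym and Dio3. Dio2 and Klf9 (r = 0.62) and Hr and Klf9 (r = 0.59) varied in the same direction. Among 11693 other genes averaging 5 CPM or more, the profile most like that of Dio2 was Kcna1, a potassium channel gene (r = 0.90), followed by Sema7a (0.90), itself on the list of response genes, and Cerk (0.90). Thrb was most like Col6a3 (0.91), Hr like Plod1 (0.90), Klf9 like Mtmr2 (0.86) and Thra like Gprin1 (0.94). Slco1c1 was most like Slc31a1 (0.91), which encodes a copper transporter, and Elovl7 (0.91), a fatty acid elongase. Itih3 was most like Gga2 (0.93) and then Gpr50 (0.88), a receptor of tanycytes. Dio3 had the weakest best match, Timm44 (0.79), and Crym was most like Kcnh3 (0.93) and Bcl11b (0.86), a transcription factor of striatal and cortical neurons. All these correlations are descriptions over libraries that share ages.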

How the data were processed

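Deposited files held whole-number counts per gene symbol, which the authors made with HISAT2 2.1.0 and HTSeq 0.9.1 on mm10, per the submitters' processing notes; for the annotation and the strand setting the entry is: not given in the sources used here. The 5 HTSeq summary lines, 26.1 to 32.5% of each total, were left out. From the deposited counts of 28 of 29 libraries (24661631 to 39783779 gene counts each) TMM-scaled CPM were computed here, and edgeR 4.0.16 (R 4.3.3) quasi-likelihood tests were fitted with 1 term per age over all 9 ages on 16916 genes kept by filterByExpr, and with a slope per month over 14 libraries on 16633 genes. P-values were Benjamini-Hochberg adjusted over all genes tested, and SEs were derived from the F statistics. The steps were tested on simulated data. The 24-month library with fewer than 5000 genes counted was left out. DESeq2 1.42.0 and other filters, scalings, ages and left-out libraries were alternatives. Replicate numbers are not stated to pair the libraries, so the main fits held no block for them. The genes named are the 9, full pathway and marker lists, and the 3 genes most correlated with each. The genes and lists were chosen with earlier results of these data known. Some genes of the lists are counted but not reported here by name.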

Additional observations from a re-analysis of the deposited data

Results flagged for a closer look

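Hr at 4 weeks had 1 library far from the other 3: replicate 4 held 80.7 CPM, whereas the others held 64.3 to 66.3 CPM. The gap to the nearest library, divided by the range of the 4, exceeded Dixon's critical value of 0.829. Among the 18 groups of 4 libraries examined, chance would pick out about 1 in 20. The 4-week libraries enter no fold change given above.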

How the results depend on the processing

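Over all tested genes, the count called between all 9 ages was 484 with the partial 24-month library kept, 7250 without P5, 6788 without P5 and 2 months and 573 over the 5 adult ages; these last 3 settings were chosen after seeing the data. Among the members, 1 was called with the partial library, 4 over 7 ages and 4 over the 5 adult ages. Over all tested genes, 5 weeks against 3 weeks gave 15 calls with the replicate block. It gave 32 with a term for the libraries above 10 CPM of Rn7s2 (4-week replicates 3 and 4 and every 5-week library). With only the compared ages fitted, 2 months against 5 weeks gave 1534 calls, and 6 months against 2 months, 18 against 6 months and 24 against 6 months gave 0, as for the members in 6 against 2 months (0). DESeq2 gave 1259 calls for 6 against 2 months, 18 for 18 against 6 months and 109 for 24 against 6 months (members 1), where no filter gave 11 and the partial library 0. For the adult age trend over all tested genes, DESeq2 gave 2037, the partial library 0, 6 to 24 months 0, log2 age 3063 and, chosen after seeing the data, 2 to 18 months 764; among the members the partial library and 6 to 24 months gave 0 and log2 age 5. With 1 library left out, calls ranged over all tested genes from 12272 to 13191 (all 9 ages), 9182 to 9390 (3 weeks against P5), 183 to 256 (5 against 3 weeks), 1778 to 2858 (2 months against 5 weeks), 1292 to 1946 (6 months against 5 weeks), 51 to 1348 (6 against 2 months), 0 to 6 (18 against 6 months), 0 to 20 (24 against 6 months) and 443 to 1557 (adult age trend), and among the members from 5 to 7, 1 to 4, 2 to 3, 0 to 4 and 2 to 3 for 3 weeks against P5, 2 months and 6 months against 5 weeks, 6 against 2 months and the trend. Signs turned, all near 0 or uncalled, as follows. At 5 against 3 weeks Slco1c1 was 0.079 with the Rn7s2 term, and Hr was 0.023 without TMM, 0.0060 without a filter, 0.0035 with the compared ages and 0.054 with the block. Hr was 0.0060 at 2 months against 5 weeks, and Klf9 0.0012 at 6 months against 5 weeks, with the compared ages. Without TMM Klf9 was 0.032 at 6 months against 5 weeks and 0.0063 at 6 against 2 months, and Thra 0.032 there. With the partial library Thra was -0.49, Hr -0.49 and Itih3 -0.12 at 24 against 6 months, and the slopes of Thra and Thrb were -0.018 and -0.012. Over 6 to 24 months the slopes of Thrb and Hr were -0.0051 and 0.00037. With 1 library left out, ranges crossing 0 were, for Crym, -1.14 to 1.13 (3 weeks against P5), -1.91 to 0.36 (5 against 3 weeks), -0.14 to 2.15 (6 months against 5 weeks), -1.20 to 1.10 (18 against 6 months) and -2.08 to 0.28 (24 against 6 months). For Dio2 the range was -0.24 to 0.28 and for Hr -0.11 to 0.16 and for Slco1c1 -0.19 to 0.0085 at 5 against 3 weeks. At 2 months against 5 weeks they were -0.016 to 0.14 (Thrb), -0.034 to 0.16 (Slco1c1), -0.047 to 0.017 (Hr) and -0.030 to 0.11 (Klf9). Others were Dio3 -0.89 to 0.20 and Klf9 -0.060 to 0.079 at 6 months against 5 weeks, Thra -0.15 to 0.10 and Klf9 -0.098 to 0.016 at 6 against 2 months, Dio3 -0.73 to 0.56, Thra -0.038 to 0.10 and Slco1c1 -0.010 to 0.21 at 18 against 6 months, Thrb -0.24 to 0.091 and Hr -0.15 to 0.30 at 24 against 6 months, and the Thra slope -0.00064 to 0.0066. The causes were not tested. Same-numbered libraries correlated by 0.042, 0.131 and 0.053 at P5 and 3 weeks and by -0.125, -0.209 and -0.119 at 3 and 5 weeks. Differently numbered libraries were not compared, so these values do not settle whether the numbers pair libraries. With the replicate block 3 weeks against P5 gave 10377 calls over all tested genes, and Thra passed (-0.14, adjusted p = 0.043). Of all 432 single-gene values in the alternatives other than left-out libraries, 377 kept direction and side of the threshold. The sign turned in 17, the call was lost in 31 and a call was gained in 7. Depth limits Dio3, with as few as 2 counts in a 12-month library.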
